A study of Mus musculus with 12 samples.

Results

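The Schlafen (Slfn) genes of mouse chromosome 11 were followed across 12 poly(A) RNA-seq libraries of wild-type bone marrow-derived macrophages. The members were chosen by gene symbol: Slfn1, Slfn2, Slfn3, Slfn4, Slfn5, Slfn8 and Slfn9, which make up 7 of the 32285 genes in the count table. All 7 had enough counts to be among the 14113 genes tested, and each of them passed the filter on low counts. Attention was drawn to the family because Slfn1 led the rises after itaconic acid and after methylsuccinic acid in an earlier analysis of the same libraries. The values of those contrasts are therefore given as a description, with no p-value, and nothing is read from how many members passed the threshold there.

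The macrophages, grown from bone marrow in culture, were seeded and received no addition (medium, M), itaconic acid (IA), methylsuccinic acid (MetSA) or malonic acid (MA) for 16 h. Each acid was diluted from a 50 mM stock to 5 mM, and all groups shared the wild-type genotype, with no stimulus named besides the acids. Itaconic acid is made by activated macrophages and is succinic acid with a methylene group attached through a double bond. Methylsuccinic acid is its saturated form, and malonic acid is a shorter dicarboxylic acid. Each group held 3 replicates, described as biological replicates. The sources used here do not give the strain, sex or age of the mice, or say whether each replicate was its own animal. If the replicates share an animal, the p-values below measure only the spread between these cultures.

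Schlafen proteins share an N-terminal core domain with ribonuclease-like and nucleic acid-binding properties. The short proteins Slfn1 and Slfn2 consist of little more than this core, the intermediate Slfn3 and Slfn4 add a linker region, and the long Slfn5, Slfn8 and Slfn9 add a C-terminal helicase-like domain. The family is known for induction by type I interferon, which acts through JAK-STAT signalling on interferon-stimulated response elements, and for roles in lymphocyte and myeloid cell quiescence and in restricting viral protein synthesis.

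The 7 genes lie side by side over 264 kb in the GENCODE M21 annotation of mm10. In order of rising coordinate they are Slfn5 (chr11:82951349-82964840, plus strand), Slfn9 (chr11:82978390-82991830, minus strand), Slfn8 (chr11:83002158-83020810, minus strand), Slfn2 (chr11:83065112-83070678, plus strand), Slfn1 (chr11:83116849-83122670, plus strand), Slfn4 (chr11:83175186-83190216, plus strand) and Slfn3 (chr11:83191330-83215154, plus strand). The annotated coding sequences were 1011 bases for Slfn1 and 1134 bases for Slfn2. They were 1806 bases for Slfn4, 1920 bases for Slfn3, 2652 bases for Slfn5 and 2730 bases for each of Slfn8 and Slfn9. The closest relatives were Slfn8 and Slfn9, with 92.7% identity over the aligned coding sequence, and Slfn3 and Slfn4, with 92.3%. Slfn1 and Slfn2 were 71.3% identical. The pseudogene Slfn10-ps between Slfn8 and Slfn2 is not analysed here, and reads from stretches it shares with Slfn8 or Slfn9 cannot be told apart from theirs. Slfn14, beyond Slfn3, had at most 10 counts in any library, the antisense gene Slfn5os at most 6 and the Schlafen-like gene Slfnl1 on chromosome 4 at most 5, and none of these 3 was tested.

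The start-proximal sequences of the members are shown because the family is known for induction by interferon, whose response elements can be searched for in them. They were taken from RefSeq promoter windows on GRCm38.p6, running from 250 bases before to 50 bases after the annotated start, and all 7 members had a window. The stretches below are written 5′ to 3′ on the strand of the gene, and capitals mark matches to the searched motifs. They cover positions -100 to -1 from the start, except for Slfn5, where -200 to -121 is shown. The RefSeq start of Slfn5 lies 753 bases from its GENCODE start, inside the GENCODE gene. The printed Slfn5 stretch therefore lies within that gene, downstream of the GENCODE start. For Slfn1 the distance between the starts was 29 bases, and for each other member it was 0. None of the printed bases lies in an annotated exon.
Slfn5 (chr11:82951902-82951981, plus strand): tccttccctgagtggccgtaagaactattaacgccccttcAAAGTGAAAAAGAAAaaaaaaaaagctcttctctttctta
Slfn9 (chr11:82991831-82991930, minus strand): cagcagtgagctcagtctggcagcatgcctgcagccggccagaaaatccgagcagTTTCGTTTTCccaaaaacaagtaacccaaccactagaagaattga
Slfn8 (chr11:83020811-83020910, minus strand): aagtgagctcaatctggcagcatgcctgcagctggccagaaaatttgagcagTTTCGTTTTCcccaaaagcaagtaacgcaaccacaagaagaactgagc
Slfn2 (chr11:83065012-83065111, plus strand): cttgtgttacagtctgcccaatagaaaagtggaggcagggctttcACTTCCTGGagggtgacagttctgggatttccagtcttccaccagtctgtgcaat
Slfn1 (chr11:83116720-83116819, plus strand): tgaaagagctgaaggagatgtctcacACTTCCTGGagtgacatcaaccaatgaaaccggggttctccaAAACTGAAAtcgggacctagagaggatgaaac
Slfn4 (chr11:83175086-83175185, plus strand): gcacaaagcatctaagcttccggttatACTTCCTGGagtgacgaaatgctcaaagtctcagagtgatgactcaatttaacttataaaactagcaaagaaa
Slfn3 (chr11:83191230-83191329, plus strand): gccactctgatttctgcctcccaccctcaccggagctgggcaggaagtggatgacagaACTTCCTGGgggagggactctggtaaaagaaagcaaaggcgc

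The core of the interferon-stimulated response element, spelled GAAA, then NN for any bases, then GAAA, was searched on both strands. It was found in 3 of the 7 windows, against 3.44% of the 32851 mouse promoter windows of 300 bases. The matches stood at -155 to -146 in Slfn5 on the plus strand of the gene, at -45 to -36 in Slfn9 and at -48 to -39 in Slfn8, both on the opposite strand. The Slfn5 match lay within the GENCODE gene, downstream of its GENCODE start. The Slfn8 and Slfn9 windows were 84.9% identical over 292 aligned bases. The shorter form AAANNGAAA, which every match of the longer motif also contains, was found in 5 of the 7 windows, against 10.55% of all windows. It added Slfn1 at -32 to -24 and Slfn4 at -225 to -217 and at -153 to -145, the latter positions lying outside the printed stretch. The letters TTCNNNGAA, the core of the gamma-activated site of interferon gamma signalling, were in 0 of the 7 windows and in 8.30% of all windows.

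The stretch ACTTCCTGG, whose opposite strand holds the GGAA core bound by ETS-family factors such as PU.1, was noticed in the member sequences and only then searched for. It stood in Slfn2 at -55 to -47, in Slfn1 at -74 to -66, in Slfn4 at -73 to -65 and in Slfn3 at -42 to -34, on the gene's own strand in each. It was in 4 of the 7 windows and in 0.843% of all windows. Since it was picked from these same member windows, nothing is read from that difference. Slfn1 and Slfn4 also share the bases that follow it (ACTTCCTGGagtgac in both printed stretches). The 4 short and intermediate genes thus carried this stretch, and the 3 long genes carried the longer interferon motif. The members are paralogs, and a match describes letters in a window, not binding.

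**Figure D1:**
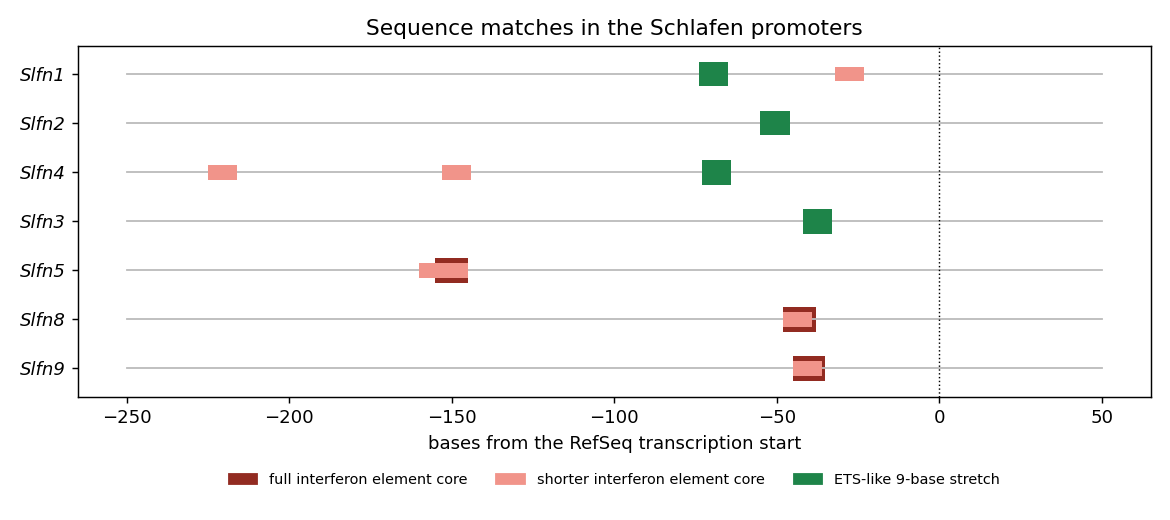
Positions of motif matches in the promoter windows of the 7 Schlafen genes, in bases from the RefSeq start, with 1 line per member from the short to the long genes and coloured blocks at the matches on either strand. The longer interferon motif is seen in Slfn5, Slfn9 and Slfn8, and the ETS-core stretch in Slfn2, Slfn1, Slfn4 and Slfn3.

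Library totals ran from 46892488 to 54252486 counts. MetSA replicate 3 stood apart from the other 2 MetSA libraries: it had 1.28% mitochondrial counts, where these had 0.759% and 0.833%, the M libraries 1.15% to 1.36% and the IA libraries 0.673% to 0.811%. It also had the lowest value of its group for all 7 members, so the members' fold changes and differences that involve MetSA are given with and without it. The cells carried the macrophage markers Adgre1, Csf1r, Cd68, Itgam, Mertk, Lyz2, Cd14 and Spi1, 8 of 8 tested, with summed levels of 24620 to 26882 CPM (counts relative to the scaled library size) in M and 23947 to 26701 in IA, 25650 to 32665 in MetSA and 28472 to 30547 in MA. Single markers moved under this sum: against M, 5 of the 8 were called higher and 0 lower in IA, 6 higher and 0 lower in MetSA, and 2 higher and 2 lower in MA. Of the markers of other cells, the NK cell genes Ncr1 and Eomes were at 0 counts in all libraries, and Klrb1c had at most 18. The T cell genes Cd3d, Cd3e, Cd3g and Cd8a had at most 4 counts and Lck at most 29, whereas Cd28 averaged 89.3 CPM in M, 101 in IA, 122 in MetSA and 74.8 in MA. The 7 neutrophil markers summed to 44.2 to 74.1 CPM in M, 45.1 to 69.8 in IA, 49.7 to 66.4 in MetSA and 40.3 to 54.6 in MA. The B cell gene Cd79b had 157 to 294 counts. The 4 stromal markers summed to 8.78 to 31.0 CPM in M, 11.2 to 17.3 in IA, 5.53 to 25.5 in MetSA and 9.92 to 26.9 in MA. The 4 megakaryocyte markers summed to 3.40 to 4.31 CPM in M, 1.62 to 2.64 in IA, 3.25 to 3.99 in MetSA and 3.62 to 4.03 in MA. The 5 erythroid markers summed to at most 0.322 CPM in any library. The 5 dendritic cell markers summed to 1.98 to 3.08 CPM in M, 7.13 to 8.71 in IA, 3.64 to 5.35 in MetSA and 2.69 to 3.34 in MA. The higher sums in IA and MetSA came mainly through Xcr1, which averaged 0.223 CPM in M, 4.86 in IA, 1.97 in MetSA and 0.443 in MA. In MA the highest of them was Siglech, at 1.27 CPM against 0.483 in M. The part of these markers in the results was not tested. In bulk libraries, more RNA per cell and more cells of a type cannot be told apart.

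Among the short Schlafen genes, Slfn1 was close to silent in medium and rose the most of the family after itaconic acid, whereas Slfn2 was already abundant. Slfn1, linked to growth arrest of thymocytes, was at 1.53, 2.69 and 3.06 CPM in the M libraries, replicates 1 to 3. In IA it was at 135.0, 109 and 119.63 CPM, in MetSA at 67.3, 54.7 and 29.4 CPM and in MA at 1.04, 1.98 and 2.17 CPM. The 4 groups separated except for M and MA, which overlapped, and MetSA replicate 3 was below the other MetSA libraries but still far above every M library. The log2 fold change against M was 5.64 (SE 0.40, n = 3 against 3) after IA, which is 49.7-fold, and 4.37 (SE 0.39) after MetSA, which is 20.7-fold, or 4.64 without MetSA replicate 3. Counts of 76 to 160 in M and 56 to 113 in MA stand behind the low values, against 5505 to 6340 in IA.

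Slfn2, which mice need to keep T cells and monocytes quiescent, was at 268, 298 and 305 CPM in M. It was at 774, 854 and 866 CPM in IA, at 686, 622 and 601 CPM in MetSA and at 253, 267 and 278 CPM in MA. Every IA library was above every MetSA library, and both groups were above M and MA, which overlapped. Its log2 fold change was the smallest of the family, at 1.52 (SE 0.07, 2.86-fold) after IA and 1.13 (SE 0.07, 2.19-fold) after MetSA, or 1.17 without MetSA replicate 3.

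The intermediate genes were low in medium and moved unequally. Slfn4, known from activated macrophages and other myeloid cells, was at 2.05, 2.43 and 3.36 CPM in M. It was at 71.4, 60.6 and 58.1 CPM in IA, at 31.4, 25.6 and 11.2 CPM in MetSA and at 1.34, 2.47 and 1.94 CPM in MA. The log2 fold change was 4.60 (SE 0.41, 24.2-fold) after IA and 3.12 (SE 0.40, 8.67-fold) after MetSA, or 3.44 without MetSA replicate 3. The M and MA libraries overlapped, and IA and MetSA each stood apart from the rest. Slfn4 and Slfn1 were the 2 members with the lowest levels in M and the largest fold changes.

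Slfn3, the neighbour and closest relative of Slfn4, was at 12.1, 12.7 and 10.8 CPM in M. It was at 75.2, 81.2 and 81.8 CPM in IA, at 63.6, 53.3 and 32.1 CPM in MetSA and at 13.5, 15.5 and 14.8 CPM in MA. All 4 groups were separate, with every MA library above every M library. The log2 fold change was 2.74 (SE 0.22, 6.68-fold) after IA and 2.06 (SE 0.21, 4.18-fold) after MetSA, or 2.30 without MetSA replicate 3.

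The long genes were all well expressed in medium. Slfn5, a nuclear member of the family, was at 452, 519.74 and 523 CPM in M and at 1794, 2025 and 2014 CPM in IA. It was at 1569.71, 1413 and 1199 CPM in MetSA and at 385, 409 and 429 CPM in MA. All 4 groups were separate, in the order IA, MetSA, M and MA. The log2 fold change was 1.96 (SE 0.09, 3.90-fold) after IA and 1.48 (SE 0.09, 2.80-fold) after MetSA, or 1.58 without MetSA replicate 3.

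Slfn8, a mouse relative of human SLFN11 and SLFN13, was at 134, 150.2 and 139.5 CPM in M and at 529, 550.0 and 535 CPM in IA. It was at 403, 369.562 and 325 CPM in MetSA and at 130.4, 134.6 and 134.8 CPM in MA. The M and MA libraries overlapped, and the other groups were separate. The log2 fold change was 1.93 (SE 0.07, 3.81-fold) after IA and 1.37 (SE 0.07) after MetSA, or 1.45 without MetSA replicate 3.

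Slfn9, almost identical to Slfn8 in coding sequence, was at 57.8, 62.2 and 53.6 CPM in M and at 277, 339 and 333 CPM in IA. It was at 205, 196 and 135 CPM in MetSA and at 37.4, 38.4 and 42.4 CPM in MA. All 4 groups were separate, and MA was the lowest. The log2 fold change was 2.45 (SE 0.15, 5.47-fold) after IA and 1.63 (SE 0.14, 3.09-fold) after MetSA, or 1.79 without MetSA replicate 3.

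**Figure D2:**
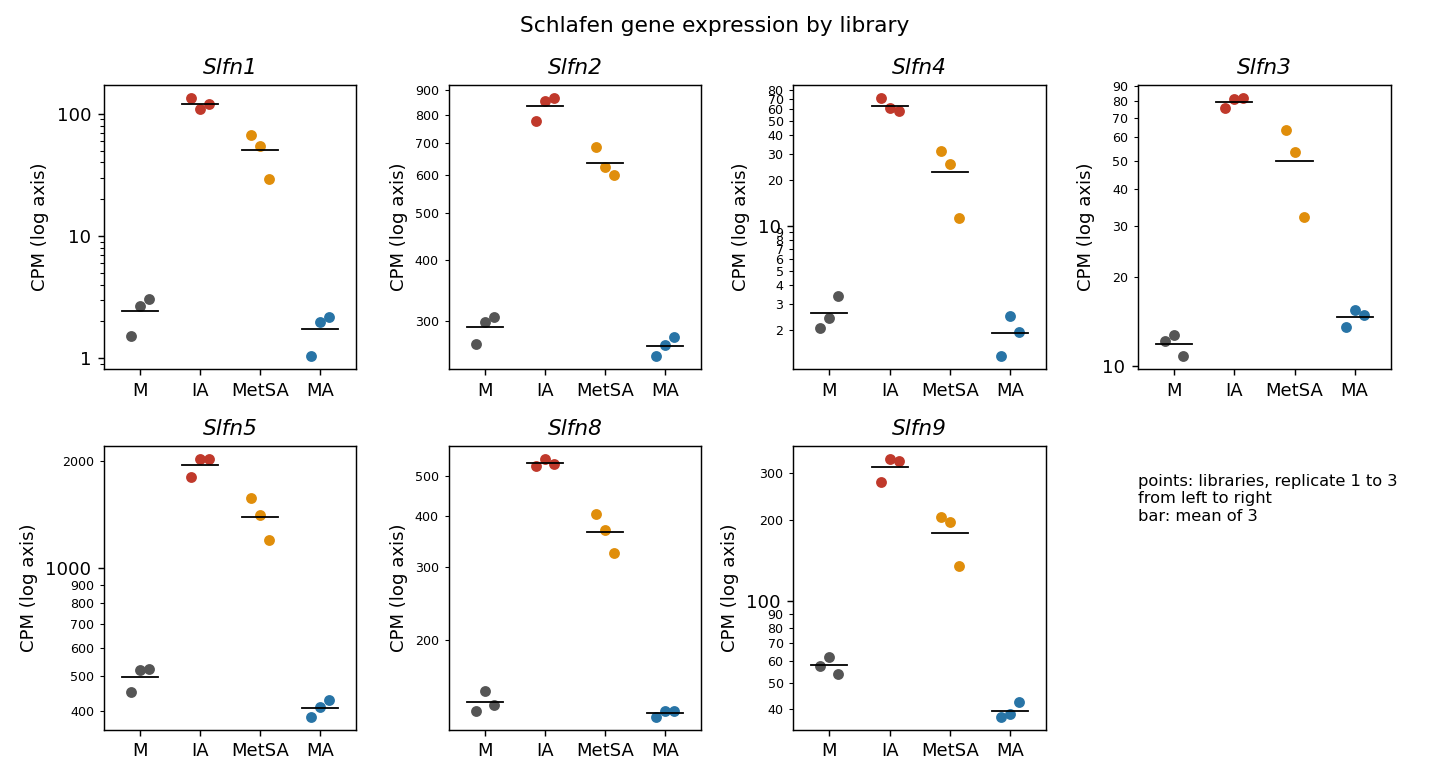
Levels of the 7 Schlafen genes in CPM on log axes, with 1 point per library (replicates 1 to 3 from left to right) and a bar at the mean of 3. IA libraries are the highest for each gene, and MetSA replicate 3 is the lowest MetSA point in each panel.

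All 7 members were called higher in IA than in M and in MetSA than in M by edgeR's quasi-likelihood test (adjusted p under 0.05, Benjamini-Hochberg, all genes tested). Of all genes tested, 17.9% were called higher in IA and 12.6% in MetSA. Since Slfn1 drew attention through these contrasts, nothing is read from the counts. The median log2 fold change of the members was 2.45 after IA and 1.63 after MetSA, beside -0.03 and -0.01 over all genes tested. Both contrasts use the same M libraries. All 7 were likewise called higher in IA than in MA (17.8% of all genes) and in MetSA than in MA (14.7% of all genes), which is given as a description too. Against MA the log2 fold changes ran from 1.64 for Slfn2 to 6.13 for Slfn1 after IA and from 1.26 for Slfn2 to 4.87 for Slfn1 after MetSA. Without MetSA replicate 3 the latter ran from 1.30 to 5.14.

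Sequence shared with other genes limits single values. Stretches of 100 bases that also occur in another gene made up 3.71% of the Slfn9 and 3.39% of the Slfn8 transcript sequence, all shared with Schlafen genes and mostly with Slfn10-ps. The share was 2.92% for Slfn3, mostly with Gm11427, and 0.271% or less for Slfn4, Slfn2 and Slfn1. With stretches of 50 bases the shares with any other gene were 15.99% for Slfn3, 14.6% for Slfn8, 11.9% for Slfn9, 11.3% for Slfn4, 11.07% for Slfn5, 4.27% for Slfn2 and 0.606% for Slfn1. Of these, 7.39% for Slfn3, 11.2% for Slfn9 and 8.16% for Slfn4 were shared with another Schlafen gene, as was the whole share of Slfn8 and none of that of Slfn5. The sources used here do not give the read length, and the values of Slfn3, Slfn4, Slfn8 and Slfn9 are uncertain for this reason. The shares do not bound the error of a count, which also depends on the level of the other gene. All of the Slfn2 share at 50 bases was with Slfn4, and in M Slfn2 averaged 290.5 CPM against 2.61 for Slfn4. In turn, 1.72% of the Slfn4 stretches of 50 bases were shared with the far more abundant Slfn2, which leaves the low Slfn4 values the more exposed. The part of reads from shared stretches in the counts was not tested. Slfn5 shares 6.16% of its 100-base stretches with the overlapping antisense gene Slfn5os, and the strand setting of the counting is not given, but the Slfn5os count never exceeded 6.

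To compare levels between members, CPM was divided by exon length. Per kilobase, Slfn2 was the most abundant in M at 175 ± 12 CPM/kb (SD, n = 3), followed by Slfn5 at 78.8 ± 6.3, Slfn8 at 34.5 ± 2.0, Slfn9 at 9.70 ± 0.72, Slfn3 at 3.48 ± 0.29, Slfn1 at 1.30 ± 0.43 and Slfn4 at 0.660 ± 0.17 CPM/kb. Slfn1 and Slfn4 overlapped in M and in MA, and other neighbours in the order did not. In IA the order was Slfn2 at 499.797, Slfn5 at 307, Slfn8 at 131, Slfn1 at 65.1, Slfn9 at 53.0, Slfn3 at 23.3 and Slfn4 at 16.0 CPM/kb, with no overlap between neighbours. Slfn1 thus stood above Slfn9 and Slfn3 in every IA library and below both in every M library. In MetSA, Slfn1 at 27.1 CPM/kb overlapped both Slfn9 at 30.0 and Slfn3 at 14.6 CPM/kb. In MA the order was the same as in M.

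The summed level of the 7 genes was 303 ± 20 CPM/kb in M, 1096 ± 51 in IA, 769.526 ± 88 in MetSA and 269 ± 12 in MA (SD, n = 3). The MetSA libraries were at 856, 772 and 681 CPM/kb, replicates 1 to 3. Slfn2 made up 57.6% of that sum in M and 45.6% in IA, while Slfn1 went from 0.424% to 5.96% and Slfn5 from 26.0% to 28.0%. Of the gain in the sum from M to IA, 41.0% came from Slfn2, 28.8% from Slfn5, 12.2% from Slfn8 and 8.04% from Slfn1. The members with the smallest fold changes therefore supplied most of the added Schlafen mRNA.

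**Figure D3:**
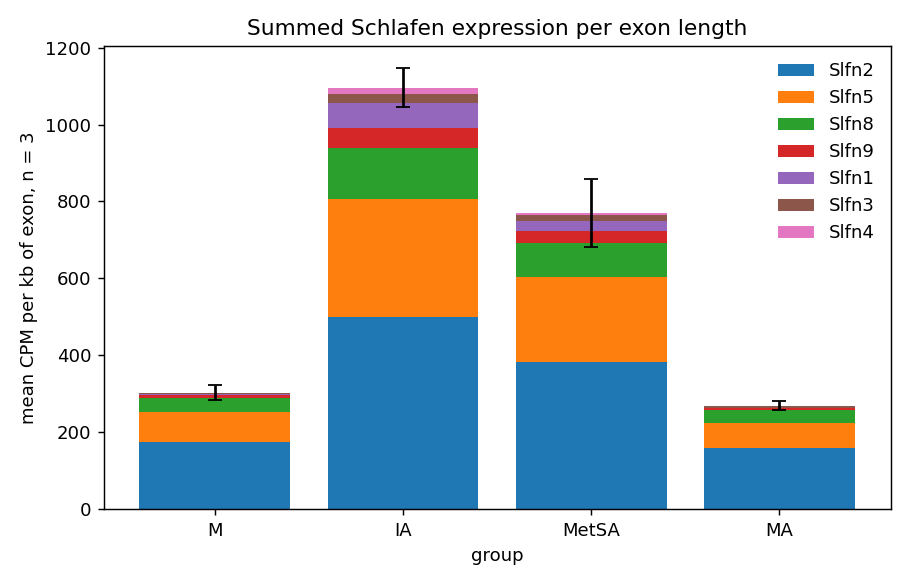
Stacked group means of the 7 Schlafen genes in CPM per kilobase of exon, with the SD of the sum over 3 libraries as the error bar. Slfn2 and Slfn5 make up most of each bar, and the sum is highest in IA at 1096 CPM/kb.

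Itaconic acid and methylsuccinic acid, which differ in structure by the double bond, were compared at the same dose and time. Whether the double bond itself underlies a difference between these groups was not tested. Here 6 of the 7 members were higher in IA, against 3.97% of all genes tested, and every IA library was above every MetSA library for 7 of 7 members, as it was for 13.9% of all genes. These libraries are shared with the contrasts that drew attention to the family, so the difference is not fully independent of the choice. Slfn8 was higher by 0.56 on the log2 scale (SE 0.07, adjusted p = 0.000187), Slfn2 by 0.39 (SE 0.07, adjusted p = 0.00232) and Slfn5 by 0.48 (SE 0.09, adjusted p = 0.00341), all by edgeR's quasi-likelihood test. Slfn9 was higher by 0.82 (SE 0.14, adjusted p = 0.00708). These 4 calls held with each of the 12 libraries left out in turn, and with only the 2 groups in the fit Slfn9 had an adjusted p of 0.0618.

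The members with the widest MetSA spread gave less stable calls. Slfn4 was higher in IA than in MetSA by 1.48 (SE 0.34, adjusted p = 0.0396 by edgeR) and Slfn1 by 1.27 (SE 0.31, adjusted p = 0.0483). The Slfn4 call was lost when any 1 of 9 libraries was left out (M replicates 1 and 2, the 3 IA, MetSA replicate 2 and the 3 MA libraries), with adjusted p between 0.00780 and 0.123 over all 12. The Slfn1 call was lost without any library except MetSA replicate 1, with adjusted p between 0.0327 and 0.147. The difference in Slfn3 was 0.68 (SE 0.20, 95% interval 0.23 to 1.12) with an adjusted p of 0.0829, so it was not called. It had an adjusted p of 0.00580 without MetSA replicate 3 and was called without MetSA replicate 1 as well. Without MetSA replicate 3 the differences were 0.99 for Slfn1 (adjusted p = 0.0578 by edgeR), 1.15 for Slfn4 and 0.44 for Slfn3. They were 0.35 for Slfn2, 0.38 for Slfn5, 0.48 for Slfn8 and 0.66 for Slfn9, each of these still called.

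Seen as levels, the MetSA gain over M was 63.9% of the IA gain for Slfn2, 61.9% for Slfn5, 56.6% for Slfn8, 56.0% for Slfn3, 46.8% for Slfn9, 40.4% for Slfn1 and 33.1% for Slfn4. Both gains are taken from the same M libraries. Without MetSA replicate 3 these shares were 67.2% for Slfn2, 68.7% for Slfn5, 61.8% for Slfn8, 69.0% for Slfn3, 55.2% for Slfn9, 49.3% for Slfn1 and 42.6% for Slfn4. In that library, Slfn4 was at 39.2% of the mean of the other 2 MetSA libraries, Slfn1 at 48.2%, Slfn3 at 54.9%, Slfn9 at 67.5%, Slfn5 at 80.4%, Slfn8 at 84.1% and Slfn2 at 91.8%. The interferon regulatory factor gene Irf7 went the same way, at 1076.55, 909 and 519 CPM in MetSA replicates 1 to 3. What set this library apart was not tested.

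After malonic acid the estimates against M lay between -0.56 and 0.30 on the log2 scale. Against M, 0 of the 7 members were called higher and 2 lower by edgeR (adjusted p under 0.05), where 10.1% of all genes were called in each direction. Slfn9 fell by 0.56 on the log2 scale (SE 0.14, 95% interval -0.87 to -0.24, adjusted p = 0.0184 by edgeR) and Slfn5 fell by 0.29 (SE 0.09, interval -0.47 to -0.11, adjusted p = 0.0245). These comparisons share the M libraries with the contrasts that drew attention to the family. The Slfn5 call was lost without M replicate 2 or 3 or MA replicate 1 or 2, with adjusted p up to 0.110, and the Slfn9 call without M replicate 1 or 2 or MA replicate 1 or 2, with adjusted p up to 0.0770. Both log2 differences stayed below 0 in each of these fits.

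For the other members the intervals of MA against M bound the change. The log2 difference lay between -0.23 and 0.06 for Slfn8 (estimate -0.09, adjusted p = 0.456 by edgeR) and between -0.27 and 0.02 for Slfn2 (estimate -0.13, adjusted p = 0.227). For the scarce Slfn1 the interval was wide, from -1.59 to 0.60 (estimate -0.50), and for Slfn4 it was -1.53 to 0.63 (estimate -0.45). Slfn3 was the only member with an estimate above 0, at 0.30 (SE 0.21, interval -0.18 to 0.78, adjusted p = 0.407). Its groups did not overlap, as was the case in that direction for 17.1% of all genes, and the groups of Slfn5 and Slfn9 did not overlap in the lower direction, as for 18.6%. Slfn3 was called higher without MetSA replicate 3 (adjusted p = 0.0141), with only the 2 groups in the fit (0.0403) and without a filter on low counts (0.0104). Without that filter Slfn1 and Slfn4 were called lower too, which gave 5 members called. At like differences, that fit gave far smaller adjusted p-values in some comparisons. For Slfn3 in IA against MetSA the log2 difference was 0.68 in both fits. Its adjusted p by edgeR was 2.47e-13 without the filter and 0.0829 in the main fit. The calls gained without the filter are therefore given little weight.

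**Figure D4:**
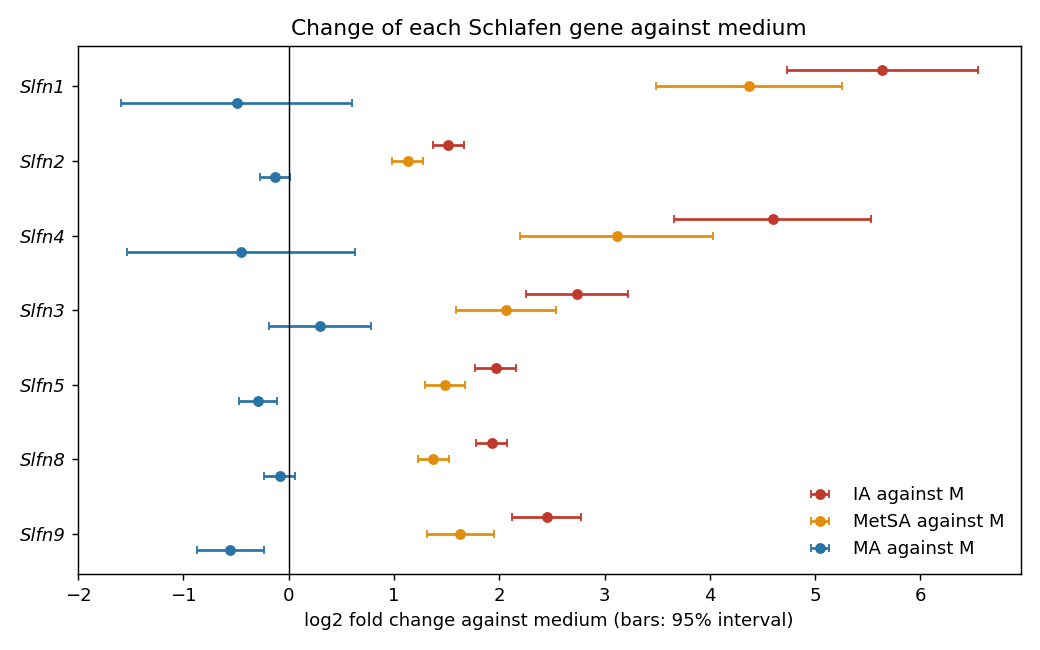
Log2 fold changes of the 7 Schlafen genes with 95% intervals from the edgeR fit, for IA, MetSA and MA against M. IA and MetSA lie above 0 for each member, MA has its estimate below 0 except for Slfn3, and the intervals are widest for Slfn1 and Slfn4.

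The genes of the interferon pathway that is known to drive Schlafen genes were taken from lists of ligands, receptors, JAK-STAT components, interferon regulatory factors and feedback inhibitors. Of the 30 genes on these lists, 22 were tested. In IA against M, 17 were called higher and 2 lower, with a median log2 fold change of 0.40, and in MetSA against M 16 were higher and 0 lower, with a median of 0.31. In MA against M 2 were higher and 6 lower, with a median of -0.15, and in IA against MetSA 5 were higher and 2 lower, with a median of 0.08. The shares of all genes called are those given for the Schlafen genes, with 17.3% lower in IA against M, 8.53% lower in MetSA against M, 10.1% lower in MA against M and 2.15% lower in IA against MetSA.

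Among the ligands, the interferon beta gene Ifnb1 had at most 10 counts in any library. It had 0, 2 and 0 counts in M, 4, 8 and 4 in IA, 2, 8 and 10 in MetSA and 0 in each MA library. No ligand gene was tested. Of the 5 receptor genes tested, 2 were higher in IA than in M and 1 was lower. Ifngr1, a chain of the interferon gamma receptor, had a log2 fold change of -0.46 (SE 0.07). Il10rb, a chain of the interferon lambda receptor, had one of 0.27 (SE 0.07). The other lambda receptor gene, Ifnlr1, had at most 24 counts and was not tested. Ifnar1 (-0.01, SE 0.07) and Ifnar2 (0.14, SE 0.06) were not called in IA against M. Of the 6 JAK-STAT genes, 5 were higher and 0 lower. The kinase gene Jak2 rose by 1.05 on the log2 scale (SE 0.08), from 44.8 ± 3.9 to 92.5 ± 7.0 CPM (SD, n = 3).

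Of the 6 interferon regulatory factors tested besides Irf9, 5 rose and 1 fell in IA against M. Irf7, which amplifies the interferon response, rose by 4.02 (SE 0.30) and Irf1 by 1.43 (SE 0.08). All 5 feedback genes rose, among them Usp18, an inhibitor of the interferon receptor, by 2.98 (SE 0.21) and Socs1, an inhibitor of JAK kinases, by 2.00 (SE 0.26). In IA against MetSA, Jak2 was higher by 0.36 (adjusted p = 0.00866 by edgeR), Irf1 by 0.39 (0.00416) and Usp18 by 0.79 (0.0399). Socs3, another inhibitor of cytokine signalling, was lower in IA than in MetSA, with a log2 difference of -0.69 (0.026), and Ifngr1 was too, at -0.27 (0.0332). Irf7 had a difference of 0.82 with an adjusted p of 0.116. In MA against M, 0 of the 6 JAK-STAT genes were called. Irf2 and the phosphatase gene Ptpn6 each had a log2 fold change of -0.32 there, while Irf8 rose by 0.30 and Socs3 by 0.73.

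Of the 23 tested genes within 500 kb of the outer ends of the cluster, 4 were higher and 2 lower in IA against M, beside 17.9% and 17.3% of all genes tested, with a median log2 fold change of 0.10. In MetSA against M 6 were higher and 0 lower, beside 12.6% and 8.53% of all genes, with a median of 0.05, and in MA against M 1 was higher and 4 lower, beside 10.1% in each direction. The changes of single neighbours that follow are for IA against M. The nearest tested protein-coding gene below the cluster was Nle1, a ribosome assembly factor at 42.9 kb, which fell by 0.67 on the log2 scale (SE 0.16). The transcript AI662270, 8.42 kb above the cluster, rose by 0.56 (SE 0.07), and the ubiquitin ligase gene Rffl fell by 0.33 (SE 0.12). Farther above lay the chemokine genes Ccl5, at 311 kb, Ccl3 and Ccl4. In IA against M, Ccl5 rose by 4.29 (SE 0.50), Ccl3 by 1.04 (SE 0.10) and Ccl4 by 1.13 (SE 0.13). Between members, the non-coding 1190001M18Rik was called higher in IA and in MetSA and lower in MA, each against M. Its log2 fold changes were 2.17 (SE 0.59), 1.78 (SE 0.60) and -3.53 (SE 0.98), in the range of the members for IA and MetSA. Its levels were under 1 CPM, so it is not drawn in the figure. It averaged 0.172 CPM in M, 0.785 in IA, 0.601 in MetSA and 0.0127 in MA.

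**Figure D5:**
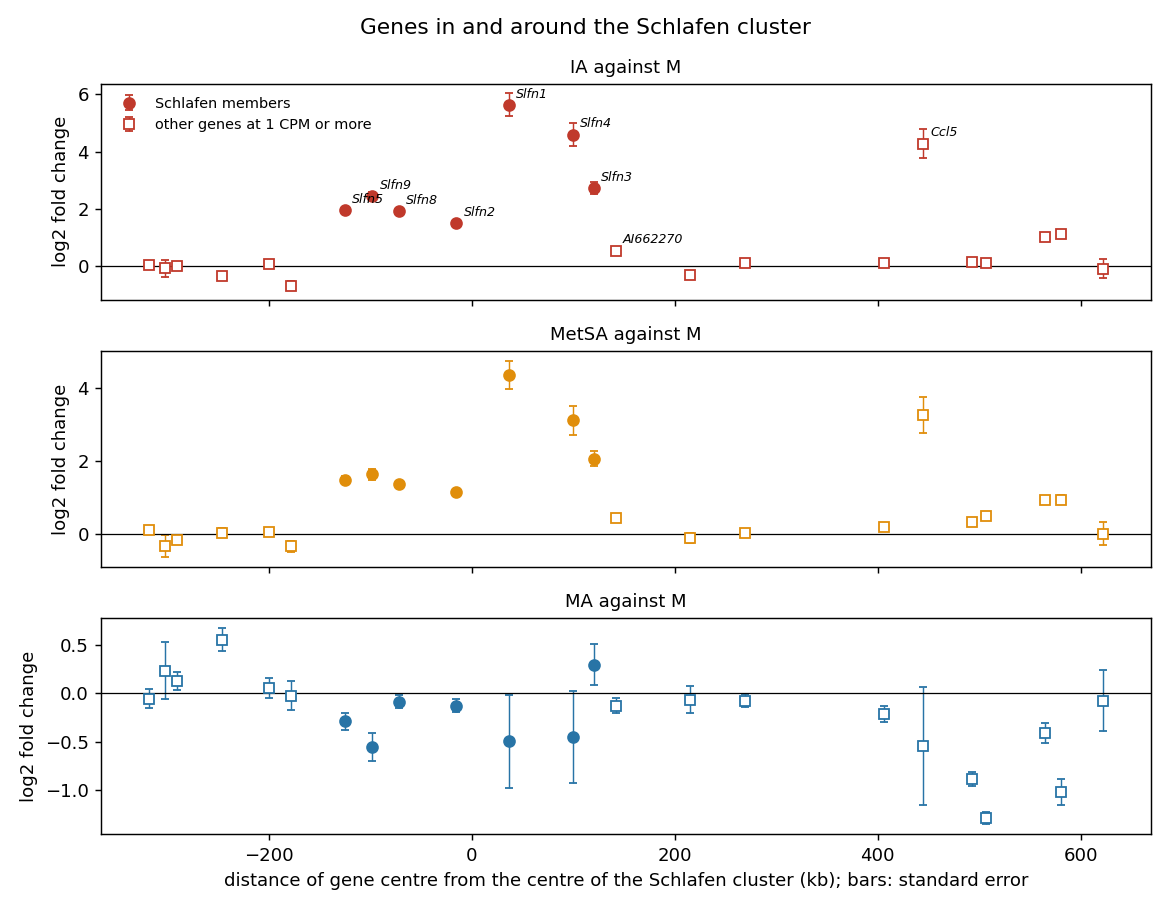
Log2 fold change, with its standard error, of the Schlafen members (filled) and of other tested genes within 500 kb that reached 1 CPM in a group (open), against the distance of the gene's centre from the centre of the cluster in kilobases, in 1 panel each for IA, MetSA and MA against M with their own vertical scales. In the IA and MetSA panels the 7 members stand above the near neighbours drawn, and Ccl5 is raised farther along.

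Across the 12 libraries the members followed each other, with Pearson r of log2 CPM between 0.964 (Slfn3 and Slfn9) and 0.998 (Slfn2 and Slfn5). These values describe 4 groups of 3 libraries that share their scaling, and the differences between groups enter each r. The ranking took 8453 genes with a group mean of at least 10 CPM. It left out Schlafen genes, predicted genes, pseudogenes and genes without a symbol. Among those ranked, the 3 genes most like Slfn1 were Ms4a4c (r = 0.999), Ifi209 (0.998) and Irf7 (0.998). For Slfn2 they were Irgm1 (0.999), Nt5c3 and Ifih1 (0.998). Slfn4 was most like Parp11, Parp9 and Ccl5 (0.994 each), and Slfn3 most like Tlr9 (0.996), Cfb (0.996) and Asah2 (0.995). For Slfn5 they were Ifit2 (0.999), Sp100 (0.999) and Ddx58 (0.998), for Slfn8 they were Dtx3l, Ifih1 and Eif2ak2 (0.998 each), and for Slfn9 they were Parp14 (0.998), Usp25 (0.998) and Tent4a (0.997).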

How the data were processed

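The deposited table holds raw counts per gene, which the authors did not normalise. STAR, featureCounts and mm10 are named per the submitters' processing notes, with versions and annotation not given in the sources used here. Of counts from 1 to 9, 66.1% were even, against 50.9% of counts of 1000 or more, so a repeat with halved counts was run. No replicate matched another within sampling noise, with chi-square values of 9.60 to 59.7 for each degree of freedom.

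Genes passed filterByExpr defaults, libraries were scaled by TMM, and 1 edgeR quasi-likelihood fit (robust) covered the 4 groups with 8 residual degrees of freedom. Genes were called at an adjusted p under 0.05, with Benjamini-Hochberg adjustment over all genes tested, in 6 comparisons. CPM uses TMM-scaled library sizes, and intervals are at 95%. The tests ran in edgeR 4.0.16 and, as an alternative, DESeq2 1.42.0, under R 4.3.3. Exon lengths and positions come from GENCODE M21 on mm10, and promoter sequences from RefSeq.

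The members and lists were chosen with earlier results of these data known. Named were all members and other Schlafen symbols, for each pathway list the 2 genes with the smallest adjusted p, the nearest tested protein-coding neighbour on each side, neighbours called in IA against M, and for each member the 3 genes with the highest r. Some genes that this rule takes are not reported here. Ifnb1, Ifnar1, Ifnar2, Ifnlr1, the non-coding gene 1190001M18Rik and Irf7 in MetSA replicate 3 were named outside this rule. Alternatives covered scaling, filters, halved counts, a replicate block, fits of 2 groups, DESeq2 and each library left out.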

Additional observations from a re-analysis of the deposited data

How the results depend on the processing

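The number of members called in IA against M, MetSA against M, IA against MA and MetSA against MA was 7 under each of the 8 settings and with each of the 12 libraries left out, and these contrasts remain a description. In MA against M, 2 members were called in the main fit, 5 without a filter on low counts, 0 with a replicate block and 0 to 3 with 1 library left out. In IA against MetSA 6 were called, 3 with only the 2 groups compared in the fit and 4 to 7 with 1 library left out; the cause was not tested. No log2 fold change of a member changed sign under these settings. Under the replicate block Slfn1 lost its IA against MetSA call (adjusted p = 0.0629 by edgeR), and Slfn5 (0.0559) and Slfn9 (0.0521) their MA against M calls. The replicate numbers were not taken as pairs: 2 of 18 same-number pairs of libraries had a correlation of deviations above 0.1. However, all 18 were above 0, from 0.0122 to 0.168, while pairs of unlike number ran from -0.113 to 0.0233. Each of the 12 libraries also correlated best with its own number, which is a hint of pairing from the data. Other changes were the IA against MetSA calls of Slfn1 with upper-quartile scaling (0.0513) and with only the 2 groups (0.120), of Slfn4 with only the 2 groups (0.129), and of Slfn3, which was called with DESeq2 (0.0186) and without a filter.

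Over all genes, upper-quartile scaling moved the share of calls that were higher from 50.9% to 34.8% in IA against M, from 59.7% to 42.2% in MetSA against M, from 64.8% to 54.2% in IA against MetSA, from 51.5% to 37.5% in IA against MA and from 55.9% to 45.5% in MetSA against MA. In IA against MetSA 864 genes were called, 1483 without a filter, 1413 with the replicate block, 1333 by DESeq2 and 575 with only the 2 groups. Slfn1 had 76 to 160 counts in the M libraries and a coefficient of variation of 32.8% between them.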
